A study of Arabidopsis thaliana with 6 samples.

Results

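The genes described here encode the proteins of the small subunit of the cytosolic ribosome, measured in shoots of Brassica oleracea var. alboglabra (A12dH) under phosphate starvation or full nutrient supply. The set was given as 60 Arabidopsis thaliana loci for 26 proteins. A locus was followed if a probe set of the array, named for that gene alone in the platform's gene table, had a value on all 6 arrays. This held for 33 loci of 20 proteins, out of 11331 genes that could be followed in this way, and each of the 33 was read by 1 probe set. Another 2 loci, of RPS7 and RPS4, had a probe set listed on the replicate 1 arrays alone. A further 12 loci occur only in probe sets given to several genes, and 13 have no probe set named for them here. The loci were set with no measured value in their rule, but earlier results of these data on ribosomal protein genes were known when they were chosen. The protein that each locus encodes is taken from the Arabidopsis ribosomal protein nomenclature, since the gene tables give most of these loci no symbol.

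The arrays were Affymetrix ATH1, built on Arabidopsis sequence, so a locus here stands for the Arabidopsis gene behind the probes and not for one Brassica gene copy. Shoots starved of phosphate (P-starved) and shoots on full nutrients (replete), all of this doubled haploid line, gave 3 arrays each. Both groups were grown in compost at 22 °C with days of 16 h and deionised water every day, and the sources used here do not say how phosphate was withheld. Nothing in the labels ties the 3 samples of a group to separate plants or harvests, so a p-value reflects the spread of these samples alone, and that may be technical.

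The 6 arrays fall into 2 processing sets that stand apart. Both replicate 1 arrays list 22810 probe sets, while the 4 arrays of replicates 2 and 3 list 19642 of them. Log2 signals correlated across probe sets with r of 0.903 to 0.927 within a set and 0.608 to 0.633 between sets. Each set holds both groups, so every group difference was also taken within each set. Levels of the small subunit genes differed between the sets too. Of the 33 genes, 15 (45.5%) were lower and 6 (18.2%) higher on both replicate 1 arrays than on all the other arrays, where 20.7% of all probe sets were lower and 39.5% higher. Among the brighter 50% of probe sets these shares were 31.3% and 31.9%. Levels of different probe sets are not set against each other, and a group difference is read within the sets unless all 6 arrays are named.

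The small subunit binds the messenger RNA and decodes it, and its proteins surround the 18S ribosomal RNA in a head, a body and a platform. Plants carry several gene copies, called paralogues, for each of these proteins. Ribosomal protein genes are highly expressed in growing tissue, and ribosomal RNA is a major store of organic phosphorus in leaves. RPS6, the substrate of S6 kinase in the TOR growth pathway, and RPS18, whose loss gives pointed leaves in Arabidopsis, were among the 26 proteins, but none of their genes had a probe set of its own on all arrays, and neither did AT4G00100, the second RPS13 gene.

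On the replicate 2 and 3 arrays most small subunit genes had lower values in P-starved shoots, and on the replicate 1 arrays most had higher values. Of the 33 genes, 26 were lower on the replicate 2 and 3 arrays, with a median log2 difference (P-starved minus replete) of -0.35, where 46.1% of all 19578 tested probe sets were lower 53.9% higher, and their median was 0.02. Both P-starved arrays of that set lay below both replete arrays for 17 of the 33 genes, or 51.5%, against 16.1% of all probe sets. Both lay above for 0 of the 33, against 23.2%. In the replicate 1 set 10 of 33 genes were lower and 23 higher, with a median of 0.26, where 48.0% of all probe sets were lower and 52.0% higher. The replicate 1 comparison is 1 array against 1 and has no replicate check. In bulk tissue, fewer cells that express these genes and less of their RNA per cell cannot be told apart.

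**Figure D1:**
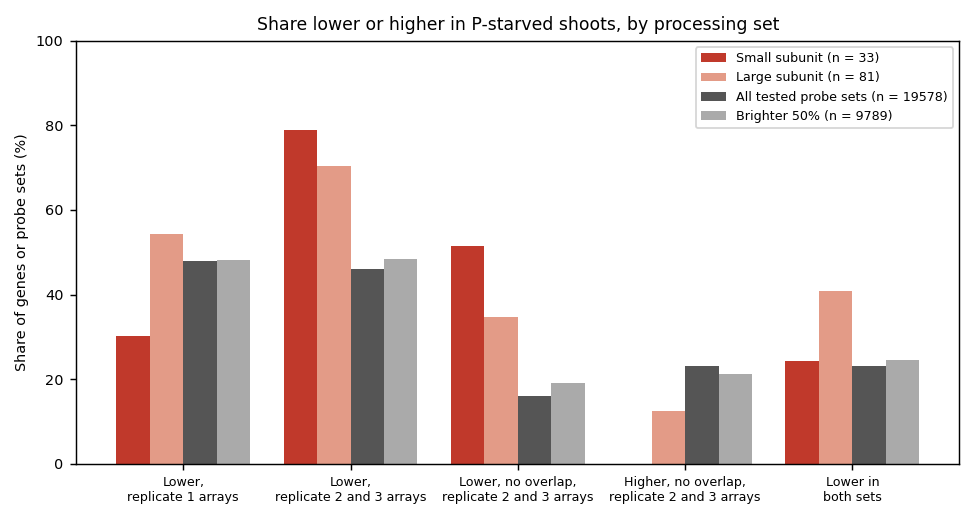
Bars give the share, in percent, of genes or probe sets that were lower or higher in P-starved shoots in each processing set, for 33 small subunit genes, 81 large subunit genes, all 19578 tested probe sets and the brighter 50% of them. The small subunit bar stands at 30.3% for lower values on the replicate 1 arrays and at 78.8% on the replicate 2 and 3 arrays.

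Over all 6 arrays 25 of the 33 genes were lower, against 47.4% of all probe sets. Their log2 differences had a median of -0.09, a mean of -0.19, and a range from -0.84 to 0.52. The median of all tested probe sets was 0.02. No small subunit gene passed the test. With the processing set as a block, limma called 0.0% of all probe sets at an adjusted p under 0.05, and the smallest adjusted p of a small subunit gene was 0.788. At an unadjusted p under 0.05, 5 of the 33 genes were lower and 0 higher, against 3.2% and 2.71% of all probe sets. The median over all arrays averages 2 sets of opposite sign. The median signal of the 33 genes was 282 on the P-starved replicate 1 array and 213 on its replete counterpart. In the other set it was 490 and 476 on replete replicates 2 and 3, and 324 and 390 on P-starved replicates 2 and 3.

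The same counts were taken among the brighter 50% of the probe sets, which hold 32 of the 33 genes. Of these brighter probe sets, 48.4% were lower over all arrays, 48.1% on the replicate 1 arrays and 48.4% on the replicate 2 and 3 arrays. In the last set 19.0% were lower and 21.2% higher without overlap. At an unadjusted p under 0.05, 4.05% of them were lower over all arrays. Within the replicate 2 and 3 set, the difference between the groups had a median size of 0.36 over the 33 genes. P-starved replicates 2 and 3 differed from each other by a median of 0.20, and replete replicates 2 and 3 by 0.29. Over all probe sets these 3 sizes were 0.25, 0.27 and 0.27, and over the brighter 50% they were 0.29, 0.32 and 0.31. The group difference is between means of 2 arrays and varies less than a gap between single arrays, so the sizes are not directly comparable. Replete replicate 2 was above replete replicate 3 for 22 of the 33 genes. The P-starved mean lay below replete replicate 2 for 27 genes and below replete replicate 3 for 24, with medians of -0.37 for both.

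**Figure D2:**
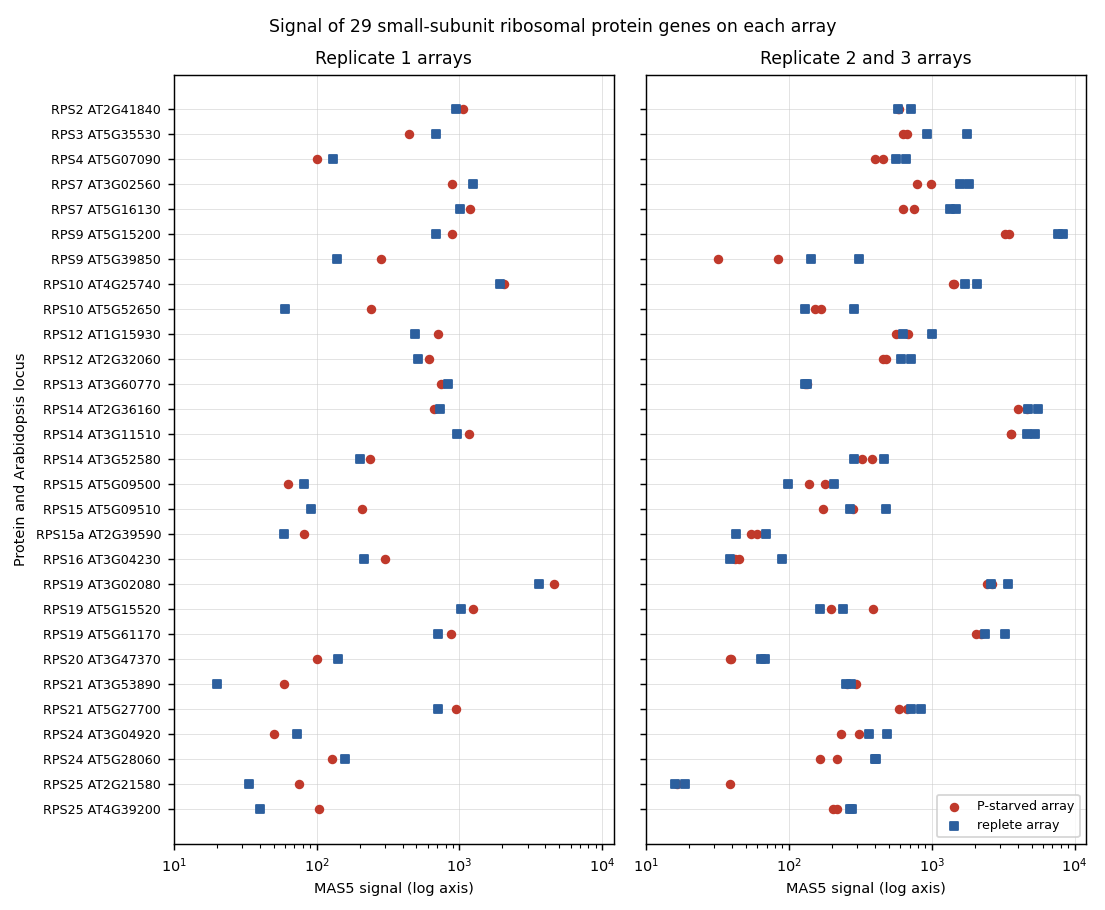
Each point is the MAS5 signal of one of 29 genes on 1 array, on a log axis, with the replicate 1 arrays on the left and the replicate 2 and 3 arrays on the right, circles for P-starved and squares for replete. For RPS9 AT5G15200 the circle lies right of the square on the left (883 against 684) and both circles lie left of both squares on the right (3244 and 3469 against 7651 and 8291).

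The genes of the body and platform come first. In P-starved shoots AT3G02560, a gene of RPS7 in the subunit body, had signals of 893, 984 and 788 on replicates 1, 2 and 3, against 1249, 1810.4 and 1573 in replete shoots. All 3 P-starved arrays lay below all 3 replete arrays. The log2 difference was -0.78 ± 0.17 (SE), -0.48 in the replicate 1 set and -0.93 in the other (limma p 0.00405, adjusted p 0.788). The groups did not overlap over all arrays, with lower P-starved values, for 2 of the 33 genes, against 1.92% of all probe sets, and for 0 with higher values, against 2.33%.

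Both measured genes of RPS24, another body protein, were lower in both sets. AT5G28060 had 127, 166 and 217 on P-starved replicates 1 to 3, against 158, 409 and 402 on the replete ones. Its log2 difference was -0.78 ± 0.22, with -0.28 in the replicate 1 set and -1.03 in the other (limma p 0.014, adjusted p 0.788). AT3G04920 had 50.2, 307 and 230.3 against 72.5, 489.7 and 366, and its log2 difference was -0.57 ± 0.20 (limma p 0.0341, adjusted p 0.788). Within each set the P-starved arrays of both genes lay below the replete ones, and across the sets the groups overlap because the sets differ in level. AT5G07090, a gene of the body protein RPS4, had 101, 452 and 402 against 129.99, 558 and 657. Its log2 difference was -0.43 ± 0.15 (limma p 0.0278, adjusted p 0.788), again without overlap in the replicate 2 and 3 set.

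Both genes of RPS9, a protein at the channel where messenger RNA enters the subunit, had opposite directions in the 2 sets. AT5G15200 had 883 on P-starved and 684 on replete replicate 1, then 3244 and 3469 on P-starved replicates 2 and 3 against 7651 and 8291 on the replete ones. Its log2 difference was 0.36 in the first set and -1.24 in the second. AT5G39850 had 282 against 139 on the replicate 1 arrays, then 84.0 and 32.0 against 143 and 309, which gives 0.94 and -1.72. On the replicate 2 and 3 arrays both P-starved values of both genes lay below both replete values, while the single pair of replicate 1 arrays had the opposite order. Over all arrays the log2 differences were -0.71 ± 0.34 and -0.83 ± 0.66.

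Of the other body and platform genes, the second RPS7 gene AT5G16130 had 1188 on P-starved and 1008 on replete replicate 1, then 751 and 629 against 1477 and 1339.8, so that it too was higher in one set and lower in the other. The 3 genes of the platform protein RPS14, which lies near the messenger RNA exit, had log2 differences of -0.22 (AT3G11510), -0.20 (AT2G36160) and 0.04 (AT3G52580). In the replicate 1 set these were 0.26, -0.13 and 0.21, and in the other -0.47, -0.24 and -0.05. The single measured gene of RPS2 (AT2G41840) had 0.16 in the replicate 1 set and -0.14 in the other, and that of RPS13 (AT3G60770) had -0.16 and 0.01. That of RPS15a, AT2G39590, had 81.7, 54.0 and 59.6 on the P-starved arrays against 58.7, 42.7 and 69.0 on the replete ones, with 0.16 ± 0.27, which was 0.39 in the first set and 0.04 in the second. Leaving out 1 array gave 0.038 (without replete replicate 2) to 0.34 (without replete replicate 3). In the last 3 genes the groups overlapped on the replicate 2 and 3 arrays.

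In the head of the subunit, AT5G35530, a gene of RPS3, which lines the messenger RNA entry, had 447, 626 and 672 on the P-starved arrays against 688, 1752 and 926 on the replete ones. All P-starved arrays lay below all replete arrays. The log2 difference was -0.84 ± 0.26, the furthest below 0 of the 33, with -0.60 and -0.96 in the 2 sets (limma p 0.0193, adjusted p 0.788). It was -0.55 without replete replicate 2, so this array moves the value by over 1.5 times. AT3G47370, a gene of the head protein RPS20, had 101, 39.6 and 38.6 against 140.5, 67.8 and 63.98, with a log2 difference of -0.52 ± 0.21 (limma p 0.0528). In both sets its P-starved arrays were the lower ones.

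Of the 2 genes of RPS12, a protein of the beak of the head, AT2G32060 had 608, 477 and 459 against 516, 605 and 711, opposite in the 2 sets as for RPS9, and AT1G15930 had log2 differences of 0.52 in the first set and -0.36 in the second, where its groups overlapped. The RPS16 gene AT3G04230 had 0.46 and -0.35, again with overlap in the second set. Over all arrays these 2 genes had -0.06 ± 0.27 and -0.08 ± 0.34, means of opposite signs.

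Head and body genes had the same main direction within each set, and the difference between them was not tested. On the replicate 2 and 3 arrays 12 of 15 head genes were lower, with a median log2 difference of -0.36, and 14 of 18 body and platform genes, with a median of -0.27. Of all probe sets 46.1% were lower there. On the replicate 1 arrays 12 of 15 head genes were higher, with a median of 0.29, and 11 of 18 body and platform genes, with a median of 0.19, against 52.0% of all probe sets. Lower in both sets were 13.3% of the head genes and 33.3% of the body and platform genes, against 23.1% of all probe sets. Higher on the replicate 1 arrays and lower on the others were 66.7% and 44.4%, against 23.0%.

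The direction differed between the sets for most of the 33 genes. Of them, 8 were lower in both sets, against 23.1% of all probe sets and 24.5% of the brighter ones, so that the share of 24.2% lies near the background. They include the RPS7 gene AT3G02560, both RPS24 genes, AT5G35530 of RPS3, AT5G07090 of RPS4, AT3G47370 of RPS20 and AT2G36160 of RPS14. Another 5 were higher in both, against 29.0%, and 18 were higher on the replicate 1 arrays and lower on the others, or 54.5% against 23.0% of all probe sets. For 10 of these 18 the lower values of the second set were without overlap, against 7.49% of all probe sets, and the opposite order with no overlap was found in 0 of the 33, where both orders together took in 18.2%. The test of the difference between the sets, limma's interaction of group and set, called 0.0% of all probe sets, and the smallest adjusted p among the 33 genes was 0.179, for AT5G15200. At an unadjusted p under 0.05 this test had 6 of the 33 with a higher difference on the replicate 1 arrays, against 4.51% of all probe sets. This fit takes its spread from the replicate 2 and 3 arrays, since the replicate 1 arrays hold 1 array per group.

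**Figure D3:**
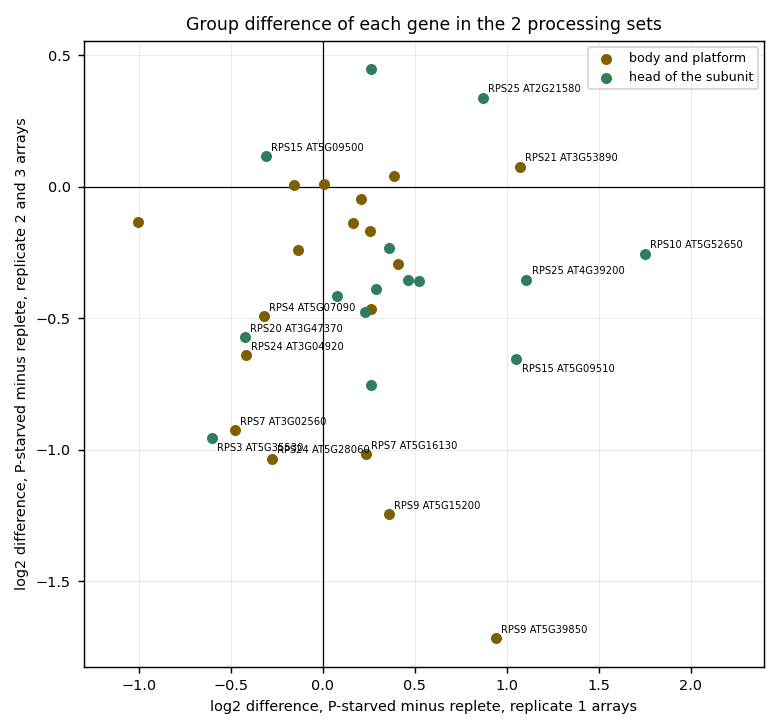
Each point is a gene, with its log2 difference (P-starved minus replete) on the replicate 1 arrays on the x axis and on the replicate 2 and 3 arrays on the y axis, coloured by the part of the subunit that holds the protein. Of 33 points, 18 lie at the lower right (higher in the first set, lower in the second) and 8 at the lower left.

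Higher values over all arrays were few, and none passed the test. AT2G21580, a gene of the head protein RPS25, had 75.1, 16.4 and 38.7 on the P-starved arrays against 33.9, 15.9 and 18.7 on the replete ones, a log2 difference of 0.52 ± 0.31 (limma p 0.147, adjusted p 0.788). It is the only one of the 33 genes with a signal under 16 on any array, and its groups overlapped on the replicate 2 and 3 arrays. Leaving out 1 array gave 0.34 (without either replicate 1 array) to 0.78 (without P-starved replicate 2). The RPS21 gene AT3G53890 had 59.6, 256 and 297 against 20.0, 271 and 251, with 0.41 ± 0.26, and nearly all of this difference comes from the replicate 1 arrays (1.07 against 0.08 on the others). The RPS19 gene AT5G15520, of a head protein needed in human cells to mature the ribosomal RNA of the subunit, had 1239, 198 and 389.6 against 1030.0, 241 and 166. Its log2 difference was 0.39 ± 0.28 and had the same sign in both sets, although P-starved replicate 2 lay within the replete range of its set. The value was 0.63 without P-starved replicate 2, 0.10 without P-starved replicate 3 and 0.23 without replete replicate 3, each a move of over 1.5 times. AT4G39200, the other measured RPS25 gene, had 104.6, 202 and 216 on the P-starved arrays against 40.0, 268 and 275 on the replete ones. Its difference of 0.13 ± 0.33 joins 1.11 on the replicate 1 arrays with -0.35 on the others, where both P-starved arrays lay below both replete ones, and it is above 0 through the replicate 1 arrays.

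The paralogues of one protein were compared through the log2 ratio of their signals on each array, and this ratio was set between P-starved and replete arrays, so that no level is read across probe sets. There were 15 such pairs, from 11 proteins with 24 measured genes. Labels were permuted within the processing sets, which gives 12 arrangements and a smallest possible two-sided p of 0.167, so no pair could pass a threshold of 0.05. By this exact permutation test 2 pairs had the smallest possible p, and the smallest Benjamini-Hochberg adjusted p over the 15 pairs was 0.833. If the groups did not differ, a share of about 0.167 of pairs would be at this p. The 2 of 15 therefore do not stand out, and they are described only as the pairs of smallest p. The difference in the ratio between the groups had a median size of 0.24 and ran from 0.02 to 0.66. It had the same sign in both sets for 6 of the 15 pairs.

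The first of the 2 pairs was of RPS21, a body protein that binds the protein Rps0 in yeast. The log2 ratio of AT3G53890 to AT5G27700 was -3.66, -1.16 and -1.14 on P-starved replicates 1 to 3 and -4.32, -1.35 and -1.68 on the replete ones. In both sets the ratio was higher in P-starved shoots, by 0.66 and 0.37. The first of these rests on a signal of AT3G53890 on replete replicate 1 of 20.0, near the offset of 16. AT5G27700 itself had 942, 590.4 and 672 on the P-starved arrays against 704, 715 and 841, so that it was higher in the first set and lower in the second. The second pair was of RPS19, with a difference of 0.13 in the ratio of AT3G02080 to AT5G61170. AT3G02080 had 4608, 2649.7 and 2430.0 against 3589, 3425 and 2603, and AT5G61170 had 868, 2196 and 2029 against 707, 3232 and 2369.7. Both were higher on P-starved replicate 1 and had lower means on the replicate 2 and 3 arrays.

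The pair with the widest spread was of RPS10, a protein of the beak. AT5G52650 had 239 on P-starved and 59.7 on replete replicate 1, then 153 and 167 on P-starved against 130.4 and 284 on replete replicates 2 and 3. AT4G25740 had 2041 against 1929.8, then 1405 and 1421 against 2077 and 1714. The ratio of AT4G25740 to AT5G52650 differed by -0.66 between the groups, which was -1.67 in the first set and -0.16 in the second (exact permutation p 0.5, two-sided). That difference comes mainly from the replicate 1 arrays, which are 1 array against 1. AT5G52650 was at 0.41 ± 0.50 over all arrays, and at -0.25 without either replicate 1 array.

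The third RPS19 gene differed in sign from its 2 paralogues on the replicate 2 and 3 arrays. There AT5G15520 had a log2 difference of 0.45, while AT3G02080 had -0.23 and AT5G61170 had -0.39. In AT5G15520 and AT3G02080 the groups overlapped on these arrays. On the replicate 1 arrays all 3 were higher, by 0.26, 0.36 and 0.29. The ratio of AT5G15520 to AT5G61170 differed by 0.55 over all arrays (exact permutation p 0.333, two-sided).

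Other paralogues had differences of one sign on the replicate 2 and 3 arrays. The RPS7 pair had -0.93 and -1.02, the RPS9 pair -1.24 and -1.72, the RPS12 pair -0.36 and -0.48 and the RPS24 pair -0.64 and -1.03. All measured genes of a protein had one sign on these arrays in 6 of the 11 proteins, and on the replicate 1 arrays in 7. With 26 of the 33 genes lower in one set and 23 higher in the other, genes of different proteins often share a sign too. These counts therefore do not tell whether paralogues go together more than other members. The RPS25 pair had 0.34 for AT2G21580 and -0.35 for AT4G39200 on the replicate 2 and 3 arrays. The RPS15 genes AT5G09500 and AT5G09510, which lie next to each other in the Arabidopsis genome, had 0.12 and -0.65 on these arrays and -0.31 and 1.05 on the replicate 1 arrays. In both RPS15 genes the groups of replicates 2 and 3 overlapped. Probes for near-identical paralogues may bind the RNA of more than 1 gene, and the part of this in any likeness was not tested.

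**Figure D4:**
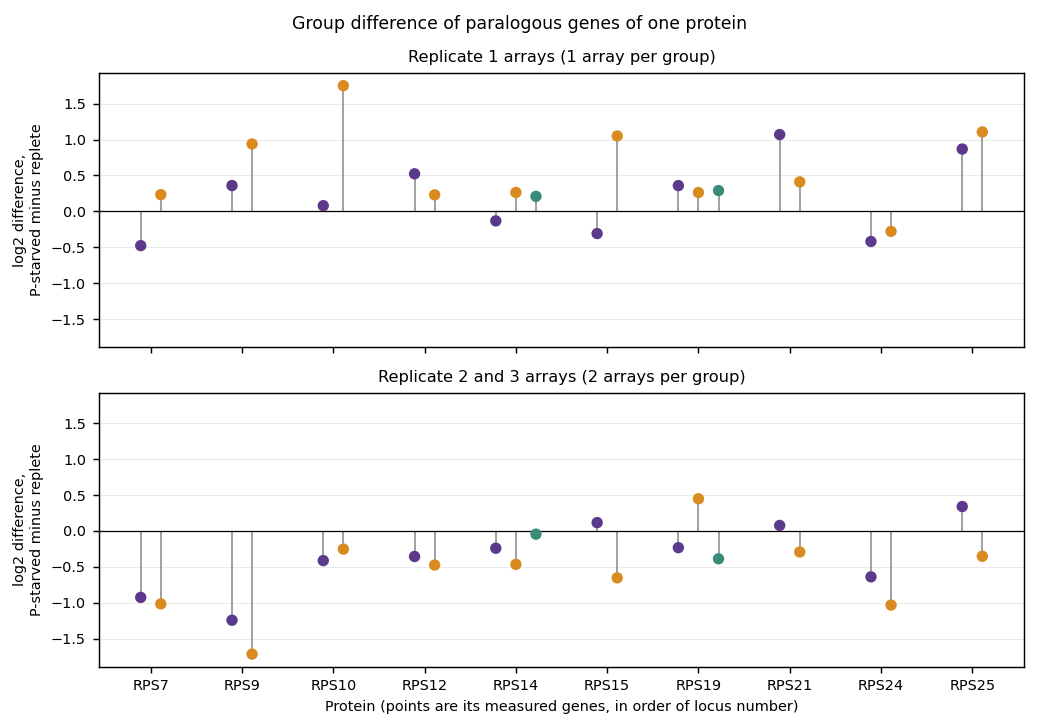
Points give the log2 difference (P-starved minus replete) of each measured gene of 10 proteins with more than 1, on the replicate 1 arrays above and the replicate 2 and 3 arrays below, with the genes of a protein side by side in order of locus number. On the replicate 2 and 3 arrays both points of RPS7, RPS9 and RPS24 lie at -0.64 or lower, and the RPS19 points are split, with AT5G15520 at 0.45.

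Probe sets that the gene table gives to several genes are not assigned to a gene, but 5 of them hold small subunit loci of 1 protein only. They were read by protein, a choice made after the data were seen. The RPS20 probe set had 315, 231 and 209 on P-starved replicates 1 to 3 against 454, 506 and 357 on the replete ones. It was lower in both sets, as was the RPS20 gene AT3G47370, with a log2 difference of -0.77 ± 0.19 (limma p 0.00807, adjusted p 0.788). The probe set for RPS3 genes had 0.52 in the replicate 1 set and -0.24 in the other, where its groups overlapped, unlike those of AT5G35530. That for RPS16 had 0.37 and -0.17, with overlap in the second set. That for RPS23, a protein of the decoding site, had -0.01 and -0.12, also with overlap. A sixth probe set, which pairs an RPS26 locus with a gene outside the set, had -0.42 and -0.19. Over all arrays these 4 had 0.01 ± 0.42, 0.01 ± 0.17, -0.08 ± 0.22 and -0.26 ± 0.21.

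Genes of the large subunit, which joins amino acids into protein, were also mostly lower on the replicate 2 and 3 arrays. On the replicate 1 arrays they were near an even split, where most small subunit genes were higher. From 134 loci listed by hand, 81 large subunit genes were measured on all arrays. Of these, 57 (70.4%) were lower on the replicate 2 and 3 arrays, against 46.1% of all probe sets, with a median log2 difference of -0.15. On these arrays 28 (34.6%) were lower without overlap and 10 (12.3%) higher, against 16.1% and 23.2% of all probe sets. For the small subunit these shares were 51.5% and 0.0%. On the replicate 1 arrays 44 (54.3%) were lower and 37 higher, against 48.0% of all probe sets lower, with a median of -0.01. In both sets 33 (40.7%) were lower, against 23.1% of all probe sets. Over all arrays 55 of the 81 (67.9%) were lower, with a median of -0.14, against 75.8% and -0.09 for the small subunit. The share of all probe sets was 47.4%. At an unadjusted p under 0.05 by limma, 10 of the 81 were lower and 0 higher, against 3.2% and 2.71% of all probe sets. The difference between the subunits was not tested. The 2 large subunit genes of smallest p were AT1G18540, at -0.87 ± 0.19, and AT2G01250, at -0.76 ± 0.17 (limma adjusted p 0.788 for both).

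Genes that build the small subunit or work with it were measured in small numbers. Of 23 listed genes for assembly of the subunit, 8 were measured, of which 4 had signals of 16 or more on all arrays. Over all arrays 5 of the 8 were lower, against 47.4% of all probe sets, with a median of -0.34 and none called. On the replicate 1 arrays 6 were lower, with a median of -0.155, against 48.0% of all probe sets. In the other set 6 were also lower, with a median of -0.55, against 46.1%. There 4 were lower and 1 higher without overlap, against 16.1% and 23.2%. In P-starved shoots AT5G41190, listed as NOB1, the nuclease that trims the 18S RNA precursor in yeast, had a log2 difference of -0.61 ± 0.20 (limma p 0.0263). AT3G51270 had -0.998 ± 0.24, at mean signals of 9.50 in P-starved and 34.6 in replete shoots. Of 33 listed genes for translation initiation, 7 were measured. Over all arrays 6 were lower, against 47.4% of all probe sets, with a median of -0.14 and none called. On the replicate 1 arrays 3 of the 7 were lower, with a median of 0.05. On the replicate 2 and 3 arrays 5 were lower. There 4 were lower and 2 higher without overlap, against 16.1% and 23.2% of all probe sets. EIF4A-2 (AT1G54270), an RNA helicase that unwinds messenger RNA before the small subunit scans it, had -0.37 ± 0.11 (limma p 0.0191), and AT4G20980 had -0.93 ± 0.25. Of the 11 listed genes of the TOR and S6 kinase pathway and its ribosomal scaffold RACK1, 3 were measured and none was called. Over all arrays their log2 differences were 0.07 for RAPTOR2, 0.31 for RAPTOR1 and 0.52 for AT5G63190. In the replicate 1 set these were -0.03, 0.12 and -0.56, and in the other 0.12, 0.40 and 1.06. The sign thus differed between the sets for 2 of the 3.

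Markers of tissue and of dividing cells were read beside these results. Of 17 leaf photosynthesis genes 4 were measured, with a summed signal of 2653 to 8792 on the P-starved and 2615 to 11280 on the replete arrays, the 2 highest sums being those of the replicate 1 arrays. The 2 of smallest p were SBPASE, an enzyme gene of the Calvin cycle, at -0.36 ± 0.15, and PSBY, of photosystem II, at 0.56 ± 0.34 (limma adjusted p 0.788 for both). Of 8 root markers 2 were measured, the beta-glucosidase gene PYK10 at 74.0 to 133.7 on P-starved and 63.7 to 104.6 on replete arrays and EXPA7 at 8.20 to 25.2 and 6.70 to 20.4. EXPA7 was under 16 on 4 of the 6 arrays. No detection calls were used, so a value above 0 does not tell whether a marker was expressed. The part of other tissue in the results was not tested. Of 17 genes of dividing cells only PRL (AT4G02060), which encodes a DNA replication licensing protein, was measured. It had 119, 129 and 133 on P-starved replicates 1 to 3 against 128, 212 and 217 on the replete ones. On the replicate 2 and 3 arrays it was lower without overlap, as were 16.1% of all probe sets. On the replicate 1 arrays its log2 difference was -0.10, while 23 of the 33 small subunit genes were higher. The part of dividing cells in the small subunit result was not tested.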

How the data were processed

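The authors' tool was MAS5, per the submitters' processing notes, and the deposited intensity values are its linear signal per probe set, with a 2% trimmed mean near 100 on each array. The sources used here give neither its version, nor any masking of probes, nor what sets the processing sets apart. Arrays were rescaled to a trimmed mean of 100, 64 control probe sets were left out, and log2(signal + 16) was taken, which understates changes of dim probe sets. All 19578 probe sets listed on the 6 arrays were fitted with limma 3.58.1 in R 4.3.3 (lmFit, eBayes with trend), with group and processing set as terms, two-sided, with Benjamini-Hochberg adjustment at 0.05. Neither detection calls nor a filter entered, and precision is limited by the number of arrays. The script was tested on simulated data.

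The members, lists and the block were chosen with earlier results of these data known. Values per array are given for the 6 members of smallest p per direction and, of the 4 proteins with the widest spread between paralogues, for 3. The rule also named RPS6, RPS13A and RPS18A, none measured. Genes of some proteins enter the counts and fits and are not reported here by name. Per-array values of other members were added after their values were seen. For each other list the 2 measured genes of smallest p are named, or the single one.

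Same-numbered arrays deviated together from their group means (r of 0.839, 0.551 and 0.53 for replicates 1 to 3 across probe sets). Within the replicate 2 and 3 set the correlation was 0.016, so the pairing comes from the processing set, which the fit holds as a block. Alternatives were other offsets, scalings, blocks and a brightness filter, and leaving out each array. A planned search of promoter motifs is not given here.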

Additional observations from a re-analysis of the deposited data

Results flagged for a closer look

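Of the 33 small subunit genes, 10 were higher on P-starved than on replete replicate 1 while both P-starved arrays lay below both replete arrays in the replicate 2 and 3 set, against 7.49% of all tested probe sets. The difference between the sets (log2 difference on the replicate 1 arrays minus that on the others) was 2.65 for AT5G39850 and 1.60 for AT5G15200, both of RPS9. It was 1.46 for AT4G39200 of RPS25 and 1.25 for AT5G16130 of RPS7. It was 0.73 for AT3G11510 of RPS14, 0.71 for AT2G32060 of RPS12 and 0.70 for AT5G27700 of RPS21. It was 0.68 for AT5G61170 of RPS19 and 0.49 for AT4G25740 of RPS10. By limma's interaction of group and set none of the 10 passed, with adjusted p from 0.179 upward.

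Outside the fits, the RPS7 gene AT1G48830 had a probe set in the replicate 1 files only, where its signal was 41.0 in replete and 88.1 in P-starved shoots. Its log2 difference was 0.87, with no replicate check. The RPS4 gene AT2G17360, measured on the same 2 arrays, had 85.1 in replete and 64.9 in P-starved shoots.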

How the results depend on the processing

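Limma called 0 probe sets in every alternative run, with 541 lower and 462 higher probe sets at an unadjusted p under 0.05 with the replicate number as a block (replicate block), against 627 and 530 with the processing set, and 105 and 61 with no block. With the replicate block 25 of the 33 genes were lower and their median was -0.09, as in the fit reported, and it changed no call. The median of the 33 genes was -0.35 on the replicate 2 and 3 arrays alone. On the replicate 1 arrays alone, an alternative added after seeing the data, it was 0.26, with 10 of 33 lower. Leaving out 1 array gave 19 to 26 lower genes and medians of -0.35 to -0.087. Without either replicate 1 array the fit reads the group difference from the replicate 2 and 3 arrays alone. Within the replicate 2 and 3 set, leaving out 1 of its arrays gave 24 to 30 lower genes and medians of -0.40 to -0.33, and the other scalings gave 15 to 17 genes lower without overlap. Quantile and cyclic loess scaling within sets gave 22 and 24 lower genes over all arrays.

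Of 16 genes named by rule, 6 had a change of sign somewhere, and none was called. AT3G02080 had 0.10 with cyclic loess, 0.076 with quantile scaling, 0.36 on the replicate 1 arrays alone and -0.23 to 0.13 without 1 array. AT5G27700 had 0.023 with quantile scaling, 0.41 on the replicate 1 arrays alone and -0.29 to 0.074 without 1 array. AT5G52650 had -0.25 on the replicate 2 and 3 arrays alone and -0.25 to 0.90 without 1 array. AT4G39200 had -0.35 there and -0.35 to 0.30. AT5G61170 had 0.29 and AT4G25740 0.08 on the replicate 1 arrays alone, and AT5G61170 -0.39 to 0.0296 without 1 array. The causes were not tested. Averaging probe sets of a locus was not run, since each member has 1.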
